A study of Mus musculus with 6 samples.

Results

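The receptors for serotonin, noradrenaline and adrenaline, dopamine, acetylcholine, histamine, somatostatin and the opioid peptides were followed in cerebella of mice on a diet low in Mn. They are 62 protein-coding genes of 53715 mouse genes in the count table, chosen by the standard symbols of these receptor families. No measured value entered that rule, but it was set with earlier results of these data known. Cerebellar RNA of 3 mice on the low-Mn diet (0 ppm Mn by the sample labels) was compared with that of 3 mice on the normal-Mn diet (35 ppm Mn), all of them C57BL/6 males that had eaten their diet for 2 weeks. The mice carried no altered gene, were 4 weeks old when bought and are called adult in the labels, and each gave 1 library of polyadenylated RNA. The comparison asks whether lowering dietary Mn changes the receptor transcripts of the cerebellum.

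Of these transmitters, noradrenaline, serotonin, histamine and acetylcholine reach the cerebellum mainly through fibers that arise outside it. Noradrenaline comes from the locus coeruleus, serotonin from the raphe and reticular nuclei, histamine from the hypothalamus and most acetylcholine from vestibular and other brain stem nuclei. For them, the cerebellum holds the receptors more than the cells that make the ligands. Nearly all of these receptors work through G proteins. Those coupled to Gs raise cyclic AMP, those coupled to Gi/o lower it and open inward rectifier potassium channels, and those coupled to Gq activate phospholipase C beta and release calcium. The nicotinic receptors and the type 3 serotonin receptor are ion channels made of several subunits around a pore, which the transmitter opens directly. Of the 62 genes, 25 encode receptors coupled to Gi/o, 10 to Gq, 9 to Gs, and 18 encode channel subunits.

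The authors deposited an expected count for each gene, and these summed to between 14548336 and 17124327 in the low-Mn libraries and between 18446701 and 21277469 in the normal-Mn libraries. The low-Mn libraries were thus the shallower ones. Levels are given as CPM, which is counts scaled to a common library total with TMM factors, and levels of different genes are compared only per kilobase of exon (CPM per kb). Before that scaling the 62 genes together held 319 to 337 CPM in the low-Mn libraries and 330 to 344 CPM in the normal-Mn libraries. The marker genes of cerebellar granule and Purkinje neurons were abundant in every library, with the granule neuron gene Gabra6, which encodes a subunit of GABA receptors, at 615 to 657 CPM in low-Mn cerebella and 615 to 652 CPM in normal-Mn cerebella. Markers of the brain stem summed to 2.27 to 3.92 CPM in low-Mn cerebella and 0.571 to 1.68 CPM in normal-Mn cerebella, without overlap. Markers of the choroid plexus, which borders the cerebellum and is easily taken with it, summed to 2286 to 2827 CPM in low-Mn cerebella and 2636 to 3202 CPM in normal-Mn cerebella. Most of these sums came from Ttr, at 2010 to 2514 CPM in low-Mn cerebella and 2296 to 2780 CPM in normal-Mn cerebella. Of the 12 choroid plexus markers, 11 had lower estimates in low-Mn cerebella and 1 a higher one. For 6 of them the low-Mn values lay below all normal-Mn values, against 8.34% of all genes tested. At an edgeR adjusted p under 0.05, 2 were lower, Kl and Sostdc1. The part of this difference in the receptor values was not tested. In whole tissue, fewer cells of a type and less RNA per cell cannot be told apart.

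No receptor gene passed the test for a diet difference. Enough counts for testing were found for 35 of the 62 genes, and edgeR's quasi-likelihood test called 0 of these 35 higher or lower at a Benjamini-Hochberg adjusted p under 0.05, while it called 0.595% of all 16123 genes tested, 0.416% higher and 0.18% lower in low-Mn cerebella. At an unadjusted p under 0.05, a level that 12.1% of all genes tested reached, stood 2 receptor genes, Drd4 and Chrm2, both with lower values in low-Mn cerebella. With 1 library left out, 0 to 2 of these 35 genes stood at that level, 0 without normal-Mn replicate 3, and Oprd1, Htr1a or Adra2c entered in some of these fits. With limma-voom in place of edgeR only Chrm2 stood there, and limma-voom called no receptor gene. With DESeq2 only Drd4 stood there, but its default filter left an adjusted p for just 2 of the 35 genes, and without that filter none passed (lowest DESeq2 adjusted p = 0.915). The CPM values of the diets did not overlap for 2 receptor genes, Adrb1 and Sstr1, both lower in low-Mn cerebella, while 17.1% of all genes tested did not overlap with 8.76% higher and 8.34% lower in low-Mn cerebella.

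The most abundant receptor transcript of this tissue was Chrnb2 (chr3:89746195-89764632, GRCm38), the beta-2 subunit that joins alpha-4 in the commonest neuronal nicotinic receptor. It stood at 121, 129 and 132 CPM in low-Mn cerebella and at 123, 124 and 125 CPM in normal-Mn cerebella. All values lay within a narrow band and the diets overlapped. The log2 fold change (low-Mn level over normal-Mn level throughout) was 0.04 with a standard error of 0.05 and a 95% interval of -0.06 to 0.14 (edgeR adjusted p = 0.786), the narrowest interval among the receptors. Per kilobase of exon it averaged 15 ± 0.490 CPM per kb (SD over the 6 libraries) and ranked first in all 6. Its share of the summed receptor level per kilobase ran from 22.5% to 24.8%.

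The next in order was Hrh3 (chr2:180099465-180104488), the H3 receptor, a Gi/o-coupled receptor that sits on axon terminals and lowers transmitter release. It had 25.4, 21.9 and 20.1 CPM in low-Mn cerebella and 22.0, 21.9 and 25.3 CPM in normal-Mn cerebella, with a log2 fold change of -0.04 ± 0.10 (SE). At 7.23 ± 0.671 CPM per kb it ranked second in all 6 libraries, and its range over the libraries overlapped neither that of Chrnb2 above it nor that of the gene after it. From there on, the ranges of neighbours in the order overlapped. Next came Htr1b at 4.33 CPM per kb, followed by Htr2c at 3.48, Sstr3 at 3.40, Adra2c at 3.15 and Oprl1 at 3.0 CPM per kb. Of these 7 leading genes, 5 encode receptors coupled to Gi/o, and the others are the channel subunit Chrnb2 and the Gq-coupled Htr2c. The exons of Chrnb2, Htr1b and Hrh3 are overlapped on the opposite strand by another gene over 16.3%, 18.04% and 11.1% of their length. The labels name a directional kit and the methods the kit without that word, and the sources used here do not give the strand setting of the counting. If strand was ignored, reads of the other gene could add more than its share of the length. These levels are therefore uncertain, and the percentages do not bound the error.

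**Figure D1:**
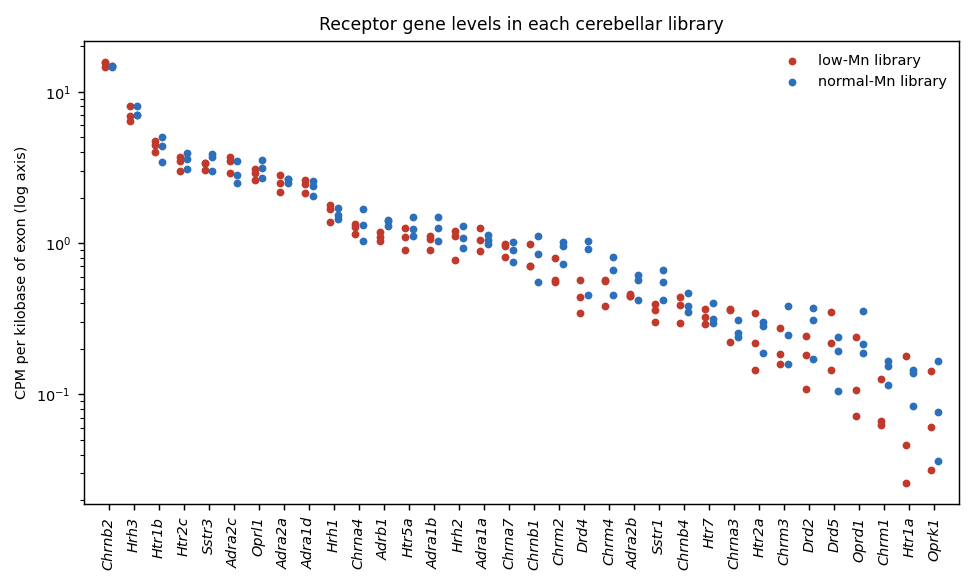
Level of 34 tested receptor genes in each library, as CPM per kilobase of exon on a log axis, ordered by their mean; each point is 1 mouse, with low-Mn libraries in red to the left of normal-Mn libraries in blue. Chrnb2 at 15 and Hrh3 at 7.23 CPM per kb stand above the rest in every library, and the spread between mice widens toward the genes with few counts at the right.

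The stretch of DNA before the RefSeq start of each gene was read for CG pairs, because promoters rich in CG pairs are typical of genes used in many cell types and CG-poor promoters of genes used in few. RefSeq windows of the GRCm38.p6 build matched 46 of the 62 genes. The RefSeq start differs from the GENCODE start for some genes, by up to 340 bases in 40 windows and by more than 1000 bases in the other 6, among them those of Adra2a, Chrna4, Chrm4 and Chrna9. Below are the 250 bases before the RefSeq start of the most abundant receptor gene, of the next one, and of Htr3b, the structural subunit of the type 3 serotonin receptor, which had no count in any library; they were chosen after their levels were seen. Each is written 5′ to 3′ on the gene's own strand with CG pairs in capitals. They lie at chr3:89764633-89764882, chr2:180104408-180104657 and chr9:48964991-48965240, all on the minus strand, and 81 bases of the Hrh3 window lie inside the gene as GENCODE draws it.
Chrnb2: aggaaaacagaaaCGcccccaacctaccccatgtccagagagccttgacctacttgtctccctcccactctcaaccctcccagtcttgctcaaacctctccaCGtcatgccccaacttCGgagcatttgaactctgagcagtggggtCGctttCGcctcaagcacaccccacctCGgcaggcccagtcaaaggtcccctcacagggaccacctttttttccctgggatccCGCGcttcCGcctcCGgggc
Hrh3: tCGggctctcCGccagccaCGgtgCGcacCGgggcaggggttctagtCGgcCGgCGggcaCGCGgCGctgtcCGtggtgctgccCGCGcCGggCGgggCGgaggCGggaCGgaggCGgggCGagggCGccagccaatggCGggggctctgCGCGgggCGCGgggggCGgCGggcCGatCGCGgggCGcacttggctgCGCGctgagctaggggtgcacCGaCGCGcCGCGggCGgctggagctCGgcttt
Htr3b: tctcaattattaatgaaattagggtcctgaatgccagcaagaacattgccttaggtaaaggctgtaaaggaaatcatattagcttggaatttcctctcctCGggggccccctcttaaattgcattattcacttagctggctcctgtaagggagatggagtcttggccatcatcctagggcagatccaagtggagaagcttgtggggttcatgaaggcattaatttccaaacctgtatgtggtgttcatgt
The windows hold 10 CG pairs before Chrnb2, 42 before Hrh3 and 1 before Htr3b. The count before Hrh3 was the highest among the receptors, whereas Chrnb2 reached the highest level with far fewer.

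Over the 29 tested receptor genes with a window, the median was 13 CG pairs with a range of 3 to 42, and 69.0% had at least 10. Over the 17 with too few counts to be tested, the median was 3 with a range of 0 to 28, and 23.5% had at least 10. Among all 32851 RefSeq windows of that length the median was 6, and 37.8% had at least 10. The tested receptors therefore stood above the typical promoter in CG pairs and the rest below it, as a description without a test. In the 40 windows within 1000 bases of the GENCODE start, the medians were 12 for 26 tested genes and 3 for 14 genes not tested. Within the tested genes the count did not order the levels, since Htr1b, Sstr3 and Adra2c reached 3.15 to 4.33 CPM per kb with 6 pairs each. The TATA motif TATAAA, searched on both strands, was found in 3 of the 46 windows, those of Oprl1, Chrnb1 and Adra2a, the last of which starts far from the GENCODE start, or 6.52%, against 12.4% of all windows.

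**Figure D2:**
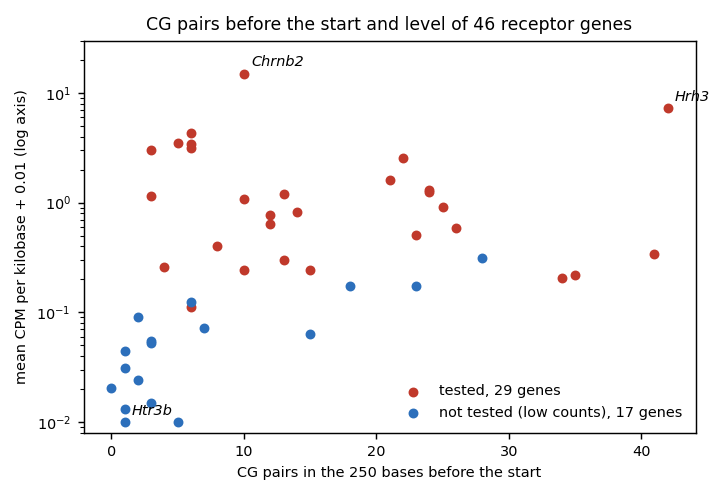
CG pairs in the 250 bases before the RefSeq start (horizontal axis) and mean level over the 6 libraries as CPM per kb plus 0.01 on a log axis (vertical axis) for the 46 receptor genes with a RefSeq window; red points are the 29 tested genes and blue points the 17 with too few counts. Blue points gather at the left, with a median of 3 CG pairs, and Hrh3 stands alone at 42 with a high level.

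Among the serotonin receptors, 6 of 14 were tested and none passed. Htr1b (chr9:81628291-81633828), a Gi/o-coupled receptor of axon terminals, had 19.0, 22.4 and 20.9 CPM in low-Mn cerebella and 20.6, 16.3 and 23.6 CPM in normal-Mn cerebella. The normal-Mn mice spanned the low-Mn values, and the log2 fold change was 0.04 ± 0.12 (SE). Htr2c, the Gq-coupled receptor for which the choroid plexus is the best known site, ranged from 28.0 to 34.5 CPM in low-Mn cerebella and from 28.8 to 36.8 CPM in normal-Mn cerebella. Its log2 fold change was -0.06 with a 95% interval of -0.25 to 0.13, beside a median of -0.26 over the choroid plexus markers. Htr5a, a Gi/o-coupled receptor, ranged from 4.87 to 6.73 CPM in low-Mn cerebella and from 6.00 to 8.05 CPM in normal-Mn cerebella, and its difference of -0.25 on the log2 scale did not pass (edgeR adjusted p = 0.626). Htr7, Htr2a and Htr1a stayed under 2 CPM in every library, and their log2 fold changes of -0.04, -0.13 and -0.53 had 95% intervals with upper ends of 0.67 to 0.75 and lower ends of -1.81 to -0.81. Htr1a rested most on single libraries, with -1.74 without low-Mn replicate 3 and -0.09 without low-Mn replicate 1. The other 8 serotonin receptors, among them the type 3 channel subunits Htr3a and Htr3b and the Gs-coupled Htr4 and Htr6, had 0 to 15 counts a library. The median over the 6 tested serotonin receptors was -0.10 on the log2 scale, beside -0.0025 over all genes tested.

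The alpha-adrenergic receptors were the one family with every member tested, and none of the 6 passed. Adra2c (chr5:35278319-35281763), an autoreceptor coupled to Gi/o, had 9.94, 12.9 and 12.03 CPM in low-Mn cerebella and 9.64, 12.04 and 8.56 CPM in normal-Mn cerebella. Low-Mn mouse 2 was the highest and normal-Mn mouse 3 the lowest, the others interleaved, and the log2 fold change of 0.20 ± 0.14 (SE) did not pass (edgeR adjusted p = 0.640). It was 0.34 without normal-Mn replicate 2 and 0.09 without normal-Mn replicate 3. Adra2a, the other main Gi/o-coupled subtype, was close between the diets at 10.5 to 13.6 CPM in low-Mn cerebella and 12.1 to 12.8 CPM in normal-Mn cerebella. The Gq-coupled Adra1a and Adra1d had log2 fold changes of 0.01 and 0.03. Adra1b, also coupled to Gq, ranged from 3.02 to 3.76 CPM in low-Mn cerebella and from 3.51 to 5.04 CPM in normal-Mn cerebella (log2 fold change -0.30, edgeR adjusted p = 0.635). Adra2b had 1.79 to 1.85 CPM in low-Mn cerebella and 1.68 to 2.48 CPM in normal-Mn cerebella. With 3 values above 0 and 3 below, the median of the family was -0.03.

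Adrb1 (chr19:56722199-56733113), the Gs-coupled beta-1 receptor, was 1 of the 2 receptor genes whose diets did not overlap. It had 3.49, 3.71 and 4.01 CPM in low-Mn cerebella and 4.77, 4.38 and 4.71 CPM in normal-Mn cerebella. Every low-Mn mouse lay under every normal-Mn mouse, but the gene rested on 54 to 102 counts a library, and the log2 fold change of -0.31 ± 0.20 (SE, 95% interval -0.72 to 0.10) did not pass (edgeR adjusted p = 0.564). Adrb3, the beta receptor of fat tissue, had 2 to 13 counts a library and was not tested.

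Dopamine receptors were scarce, and Drd4 was the highest of them per kilobase. Drd4 (chr7:141292006-141296464), a Gi/o-coupled receptor, had 1.92, 1.17 and 1.48 CPM in low-Mn cerebella and 1.54, 3.48 and 3.09 CPM in normal-Mn cerebella. Normal-Mn mouse 1 fell inside the low-Mn range while the other two normal-Mn mice stood above all low-Mn mice. The log2 fold change was -0.81 ± 0.33 (SE) with a 95% interval of -1.51 to -0.12, from 17 to 73 counts a library, and it did not pass (edgeR adjusted p = 0.320). With 1 library left out it ran from -1.10 without normal-Mn replicate 1 (edgeR adjusted p = 0.148) to -0.58 without normal-Mn replicate 2 (edgeR adjusted p = 0.711). Drd2, the Gi/o-coupled receptor of dopamine neurons and striatum, had 0.275 to 0.617 CPM in low-Mn cerebella and 0.434 to 0.952 CPM in normal-Mn cerebella. The Gs-coupled Drd5 had the opposite sign, with a log2 fold change of 0.42 ± 0.49 (SE), but 48.6% of its exon length is overlapped by a gene on the other strand. Drd1 and Drd3, with 0 to 6 counts a library, were not tested.

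All 4 muscarinic receptors with enough counts had values below 0 on the log2 scale, and none passed. Chrm2 (chr6:36388084-36528414), the Gi/o-coupled M2 receptor, had 3.37, 3.44 and 4.81 CPM in low-Mn cerebella and 4.40, 6.19 and 5.74 CPM in normal-Mn cerebella. Low-Mn mouse 3 reached above normal-Mn mouse 1, and the other low-Mn mice lay below every normal-Mn mouse. The log2 fold change was -0.49 ± 0.21 (SE) with a 95% interval of -0.93 to -0.05 (edgeR adjusted p = 0.345), from 50 to 130 counts a library. With 1 library left out it ran from -0.68 without low-Mn replicate 3 (edgeR adjusted p = 0.245) to -0.38 without normal-Mn replicate 2 (edgeR adjusted p = 0.687). Chrm4, another Gi/o-coupled subtype, ranged from 0.555 to 0.825 CPM in low-Mn cerebella and from 0.650 to 1.17 CPM in normal-Mn cerebella. The Gq-coupled Chrm1 ranged from 0.407 to 0.825 CPM in low-Mn cerebella and from 0.749 to 1.08 CPM in normal-Mn cerebella, and Chrm3, also Gq-coupled, had a log2 fold change of -0.35 ± 0.39 (SE). Chrm1 and Chrm4 were kept for testing through their normal-Mn libraries, so the sign of their difference is partly set by the filter. Chrm5 had 0 to 5 counts a library.

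Summed over all 5 muscarinic genes, tested or not, the level was 1.55, 1.63 and 1.40 CPM per kb in low-Mn cerebella and 2.02, 2.06 and 1.98 CPM per kb in normal-Mn cerebella. The sums of 3 of the 9 families did not overlap between the diets, all 3 lower in low-Mn cerebella. Of all single genes tested, 17.1% did not overlap, 8.34% with lower values in low-Mn cerebella. The matching share for sums of several genes was not measured. The muscarinic sums had the widest gap of the 3 families. The dopamine receptors summed to 0.785 to 1.07 CPM per kb in low-Mn cerebella and 1.11 to 1.54 in normal-Mn cerebella, and the somatostatin receptors to 3.96 to 4.09 in low-Mn cerebella and 4.37 to 4.89 in normal-Mn cerebella. The same 3 families did not overlap under RLE, upper quartile or plain library total scaling. With TMM factors of 0.989 to 1.01, a change of scaling could move these sums little. No test is attached to these sums, and the other 6 families overlapped, among them the nicotinic genes at 18.3 to 19.8 CPM per kb in low-Mn cerebella and 18.5 to 19.3 in normal-Mn cerebella. Over all 62 genes the sum ran from 60.9 to 63.7 CPM per kb in low-Mn cerebella and from 63.9 to 66.1 in normal-Mn cerebella, without overlap. Summed markers of some other cell types also lay lower in low-Mn cerebella without overlap. The 6 microglia markers, none of which passed, summed to 125 to 132 CPM in low-Mn cerebella and 142 to 145 CPM in normal-Mn cerebella, and the 10 oligodendrocyte markers to 6886 to 7179 CPM in low-Mn cerebella and 7352 to 8174 CPM in normal-Mn cerebella. The 8 markers of the meninges, of which Igf2 passed, summed to 273 to 315 CPM in low-Mn cerebella and 329 to 375 CPM in normal-Mn cerebella. The 8 markers of astrocytes and Bergmann glia summed to 3643 to 3774 CPM in low-Mn cerebella and 3823 to 3964 CPM in normal-Mn cerebella. Markers of unipolar brush cells and of the brain stem lay higher in low-Mn cerebella without overlap. The 4 unipolar brush cell markers summed to 460 to 476 CPM there and 439 to 450 CPM in normal-Mn cerebella. The brain stem sums, given above, came from genes too low to be tested. The part of all these markers in the receptor sums was not tested.

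**Figure D3:**
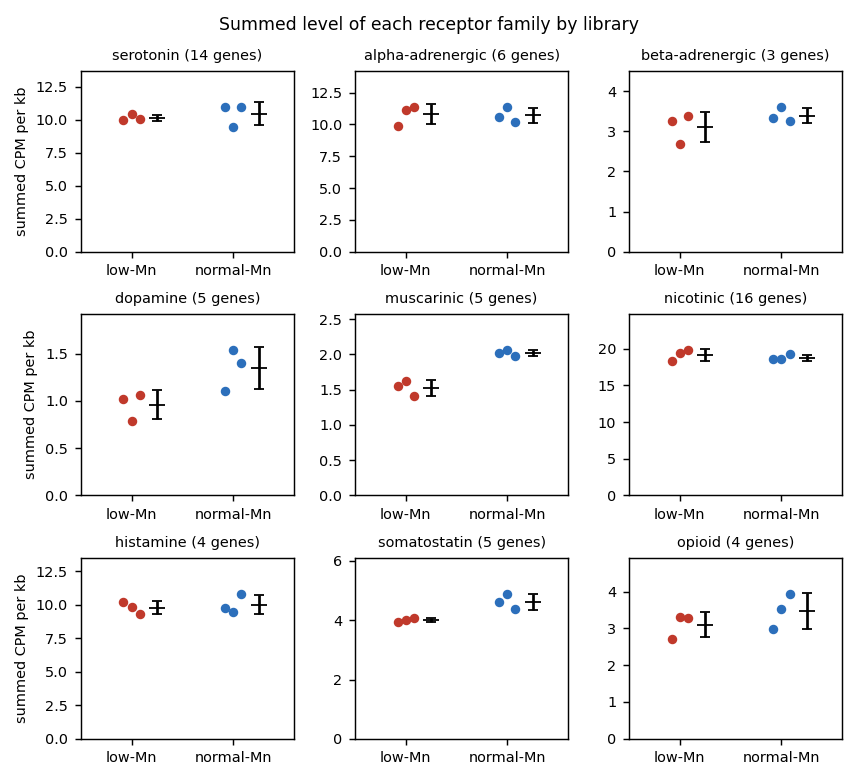
Summed level of each receptor family in CPM per kb, with 1 point per mouse, low-Mn mice in red to the left and normal-Mn mice in blue, and beside each diet the mean with bars of 1 SD (n = 3); every axis starts at 0. The diets do not overlap for the muscarinic, dopamine and somatostatin receptors and overlap for the other 6 families.

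Of the 16 nicotinic genes 6 were tested, 3 with values above 0 and 3 below, and none passed. Chrna4, the usual partner of Chrnb2, ranged from 5.75 to 6.72 CPM in low-Mn cerebella and from 5.15 to 8.40 CPM in normal-Mn cerebella. Per kilobase, Chrnb2 exceeded Chrna4 by 11.8 to 12.7 times in low-Mn cerebella and by 8.91 to 14.3 times in normal-Mn cerebella. By these counts the beta-2 transcript was in large excess in all 6 mice, with the doubt about strand given above. Chrna7, which forms channels of a single subunit type, had 3.66 to 4.47 CPM in low-Mn cerebella and 3.38 to 4.55 CPM in normal-Mn cerebella. The ganglionic subunits Chrna3 and Chrnb4 had log2 fold changes of 0.24 and -0.09. Of the muscle subunits only Chrnb1 was tested, with 1.79 to 2.50 CPM in low-Mn cerebella and 1.41 to 2.81 CPM in normal-Mn cerebella, while Chrna1, Chrnd, Chrne and Chrng had 0 to 8 counts a library. The neuronal subunits Chrna2, Chrna5, Chrna6, Chrna10 and Chrnb3 had 0 to 15 counts a library and were not tested.

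Besides Hrh3, the histamine receptors Hrh1, coupled to Gq, and Hrh2, coupled to Gs, averaged 1.59 and 1.07 CPM per kb. Hrh1 ranged from 6.10 to 7.97 CPM in low-Mn cerebella and from 6.46 to 7.53 CPM in normal-Mn cerebella. Hrh2 ranged from 4.59 to 7.15 CPM in low-Mn cerebella and from 5.47 to 7.72 CPM in normal-Mn cerebella. The family median of -0.04 on the log2 scale was small beside the intervals of its members, whose half-widths had a median of 0.33.

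The somatostatin receptors all couple to Gi/o, and 2 of 5 were tested. Sstr3 (chr15:78537008-78544685), which is found in neuronal cilia, had 13.1, 14.7 and 14.7 CPM in low-Mn cerebella and 15.96, 16.9 and 12.8 CPM in normal-Mn cerebella. Normal-Mn mouse 3 was the lowest of the 6, and the log2 fold change was -0.11 ± 0.12 (SE). Sstr1 (chr12:58211772-58214444) had 0.814, 0.618 and 0.740 CPM in low-Mn cerebella and 1.12, 0.857 and 1.35 CPM in normal-Mn cerebella. The diets did not overlap, but with 9 to 25 counts a library the log2 fold change of -0.60 had a standard error of 0.40 and did not pass (edgeR adjusted p = 0.595). Sstr2, Sstr4 and Sstr5 had up to 16 counts a library and were not tested.

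Oprl1 (chr2:181715016-181720985), the nociceptin receptor, was the leading opioid receptor with 9.82, 10.9 and 11.7 CPM in low-Mn cerebella and 10.2, 11.7 and 13.3 CPM in normal-Mn cerebella. The diets overlapped, and the log2 fold change was -0.12 ± 0.13 (SE, edgeR adjusted p = 0.789). Oprd1, the delta receptor, had the lowest log2 fold change of all receptors tested, -0.88 ± 0.49 (SE). It rested on 0.291 to 0.962 CPM in low-Mn cerebella and 0.749 to 1.43 CPM in normal-Mn cerebella, was kept for testing through its normal-Mn libraries and did not pass (edgeR adjusted p = 0.484). Its log2 fold change was -1.48 without low-Mn replicate 2 and -0.55 with normal-Mn replicate 2 left out instead. Oprk1, the kappa receptor, varied more within a diet than between diets, from 0.291 to 1.31 CPM in low-Mn cerebella and from 0.333 to 1.52 CPM in normal-Mn cerebella. Oprm1, the mu receptor and the main target of morphine, had 0 to 3 counts a library.

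The remaining genes set the limit of detection. The 27 genes not tested had mean counts of at most 7.83 a library. No count at all was found for Htr3b, for the hair cell subunit Chrna9 or for Hrh4, a histamine receptor of blood cells. This allows a level of up to 0.206 CPM in the shallowest library and up to 0.0275 CPM over all 6 libraries together. Htr1f, a Gi/o-coupled receptor, had 1, 7 and 5 counts in low-Mn cerebella and 0, 0 and 2 counts in normal-Mn cerebella. It was too low for the filter, and in a fit without a filter it did not pass (edgeR adjusted p = 0.487).

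**Figure D4:**
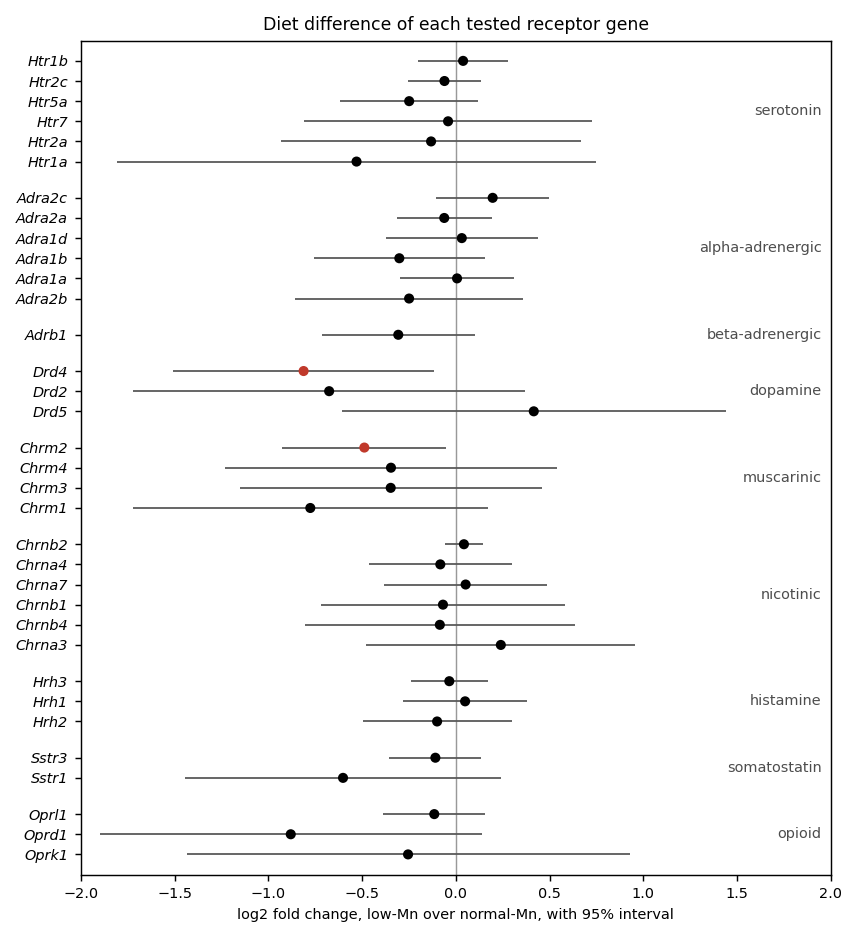
Log2 fold change between the diets (low-Mn level over normal-Mn level) of 34 tested receptor genes with 95% intervals, grouped by family; red points are Drd4 and Chrm2, whose unadjusted p was under 0.05. The interval of Chrnb2, from -0.06 to 0.14, is the narrowest, and no gene passed after adjustment over all 16123 genes.

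How large a change could have been missed differed between the genes. The 95% interval lay within 1.5-fold in either direction for 15 of the 35 tested genes and within 2-fold for 25. For the 13 genes with a mean of at least 100 counts a library, 8 values were below 0 and 5 above, the median was -0.06 on the log2 scale and no value exceeded 0.25 in size. For the 22 genes under 100 counts, 18 values were below 0, the median was -0.28 and the half-width of the interval reached 1.28. Among the 28 genes above the filter in all 6 libraries, 20 values were below 0, with a median of -0.08. The lower values thus sat mainly among the scarce receptors, where each estimate is loose. By coupling, the median was -0.25 for the 16 tested genes coupled to Gi/o, -0.10 for 8 coupled to Gq, -0.04 for 5 coupled to Gs and -0.01 for 6 channel subunits. The Gi/o group held Oprd1 and Chrm4, kept for testing through their normal-Mn libraries. It also held Htr1a, Drd2 and Oprk1, each above the filter in only 1 low-Mn and 2 normal-Mn libraries. The Gi/o median is thus partly set by the filter and by genes with few counts. Sums over all members, tested or not, also lay lower in low-Mn cerebella without overlap for Gi/o and Gq. The Gi/o sums were 27.5 to 29.0 CPM per kb in low-Mn cerebella and 29.1 to 31.3 in normal-Mn cerebella. The Gq sums were 10.10 to 10.25 in low-Mn cerebella and 10.34 to 10.83 in normal-Mn cerebella. Sums of the Gs and channel genes overlapped. All of them share genes with the family sums. These medians and sums are descriptions, and their differences were not tested.

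The genes around the receptors were read in 6 lists, and no gene of these lists passed in the edgeR test. Of the 15 tested genes for making, packing, taking up and degrading monoamines, 9 had values below 0 and the median was -0.04. Th, the rate-limiting enzyme of catecholamine synthesis, had 5.18 to 8.95 CPM in low-Mn cerebella and 7.05 to 8.10 CPM in normal-Mn cerebella, whereas Slc6a4, the serotonin transporter of raphe neurons, stayed under 0.1 CPM in every library. Chat and Slc18a3, which mark neurons that release acetylcholine, had at most 0.163 CPM. Ache, which degrades acetylcholine, was plentiful at 58.7 to 64.2 CPM in low-Mn cerebella and 60.2 to 62.5 CPM in normal-Mn cerebella. The median was -0.08 over 10 tested genes for acetylcholine and receptor assembly and -0.02 over 9 peptide precursors and processing enzymes. Among the peptide precursors, Penk had 63.8 to 69.4 CPM in low-Mn cerebella and 60.2 to 68.2 CPM in normal-Mn cerebella. Sst, Pdyn, Pomc and Pnoc had at most 4.93 CPM in any library. Sst had 1.51, 3.50 and 4.93 CPM in low-Mn cerebella and 1.68, 1.43 and 2.11 CPM in normal-Mn cerebella, so the diets overlapped. Its log2 fold change of 0.93 ± 0.35 (SE), the highest of the 9, did not pass (edgeR adjusted p = 0.269). Of these 9 genes, 3 had values above 0 and 6 below.

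Downstream of the receptors, the median was -0.03 over 25 G protein subunits, 0.02 over 13 adenylyl cyclases and phospholipase C beta enzymes, and -0.04 over 21 receptor kinases, arrestins and RGS proteins. The gene nearest the threshold was Gna12, the alpha subunit of G12. It had 119, 128 and 120 CPM in low-Mn cerebella and 137, 142 and 142 CPM in normal-Mn cerebella. The diets did not overlap, and the log2 fold change of -0.20 ± 0.05 (SE) fell just short of the threshold (edgeR adjusted p = 0.0618), while edgeR called it with upper quartile scaling, other filters or the replicate block (adjusted p of 0.00899 to 0.0472) and DESeq2 called it with its default filter only (adjusted p = 0.0191). Adcy1, a cyclase activated by calcium and calmodulin, was far more abundant at 1767 to 2023 CPM in low-Mn cerebella and 1631 to 1831 CPM in normal-Mn cerebella, and it did not pass (edgeR adjusted p = 0.483).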

How the data were processed

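Cerebellar RNA of 3 mice per diet was sequenced, and libraries were grouped by the diet in the labels. The authors mapped reads with STAR, and FastQC, RSEM, DESeq2 and mm10 appear in the submitters' processing notes, with versions not stated in the sources used here. Deposited by the authors were expected counts, estimated per gene by RSEM with no normalization, with 7.13% to 7.75% of values not whole. The 92 spike-in sequences, without any count, were left out. The normal-Mn columns are named by dose and replicate and the low-Mn columns by number alone. The FPKM values listed per library in the supplement matched best the column assigned to it in 6 of 6 cases. The methods call the mice biological replicates and a legend calls them technical ones; if technical, p-values measure only the spread between these libraries.

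Counts were rounded, kept by filterByExpr (minimum count 10, minimum total 15), scaled by TMM factors (0.989 to 1.01) and tested with glmQLFTest of edgeR 4.0.16 in R 4.3.3, with p-values of 16123 genes adjusted by Benjamini-Hochberg and called under 0.05. Alternatives used limma 3.58.1 and DESeq2 1.42.0, other scaling and filters, unrounded counts, the replicate number as a block, and each replicate left out. Family sums under other scaling and DESeq2 without independent filtering were added after seeing the data. Exon lengths, positions and symbols (53620 of the 53715 genes) came from GENCODE M21, and promoters from RefSeq. Where a gene had several promoter windows, the one nearest its GENCODE start was used.

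Members and lists were chosen with earlier results of these data known, and lists came from general knowledge. Values in every library are given for the highest member per kilobase of each family, members with an unadjusted p under 0.05 and members whose diets do not overlap. The results of 2 genes, 1 of them a receptor, are not reported here. Other genes are given by range, and Htr2c, Htr1f, Oprd1, Gna12 and the genes of the lists were named after their values were seen. The limit given for a count of 0 is 3 counts of the library total, or of the total of all 6 libraries, and covers counting error only.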

Additional observations from a re-analysis of the deposited data

How the results depend on the processing

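No receptor gene passed under any alternative: RLE or upper quartile scaling, no filter, a mean of at least 100 counts, unrounded counts, limma-voom, DESeq2 without independent filtering, the replicate block, or with any 1 replicate left out. At a mean of at least 100 counts only 13 of the 35 were tested, and default DESeq2 gave an adjusted p for only 2. The median log2 fold change of the tested receptors stayed between -0.14 and -0.05. The receptors whose diets did not overlap numbered 0 at a mean of at least 100 counts, where Adrb1 and Sstr1 were not tested, and 3 to 7 with 1 replicate left out, or 8.33% to 19.4% of those tested, beside 24.8% to 29.2% of all genes in the same fits. In the 6 related lists, 1 gene passed (Gna12) under upper quartile scaling, a mean of at least 100 counts, DESeq2 and the replicate block, and 2 genes (Gna12 and Adcy5) without a filter. Of all genes, 424 passed without a filter, 63 by limma-voom, 128 with the replicate block, and 37 to 93 with 1 replicate left out, the lowest without low-Mn replicate 2 (37), normal-Mn replicate 2 (45) and low-Mn replicate 1 (47); the cause was not tested. With 1 replicate left out, the sign turned in at least 1 fit for 17 of the 35 tested receptors and for 4 to 7 of them in a given fit. Among these, Htr1b ranged from -0.096 to 0.16 and Hrh3 from -0.14 to 0.040. Leaving out low-Mn replicate 2 gave -0.020 for Htr1b, and leaving out normal-Mn replicate 2 gave -0.096. Hrh3 was 0.040 when low-Mn replicate 3 was left out and 0.033 when normal-Mn replicate 3 was. Same-numbered libraries of the diets deviated with correlations of -0.0395 to 0.0332, so the numbers were not taken as pairs, and the replicate block left 0 receptor genes passing. With this depth and 3 mice per diet, the interval lay within 1.5-fold for only 15 of 35 tested receptors.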
